A study of Mus musculus with 6 samples.

Results

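Lipid-handling macrophage genes are the 10 mouse genes Apoe, Trem2, Gpnmb, Lpl, Fabp5, Pltp, Abca1, Abcg1, Plin2 and Lgals3, taken by name out of 29781 genes listed in the deposited matrices. All 10 had UMIs (unique molecular identifiers, counted transcript molecules) in each of the 6 libraries. The libraries are single-cell RNA-seq of orthotopic tumours, grown in the pancreas of wild-type C57BL/6J mice. The tumour cells are KPC, a pancreatic cancer line of mouse origin. The IgG group is 3 mice given IgG, and the anti-VSIG4 group is 3 mice given the #44-anti-mVSIG4 antibody, which is directed against VSIG4, a complement receptor of resident-type macrophages. All 6 tumours were collected 11 days after inoculation, 1 library came from each mouse, and doses are not stated in the labels. The comparison asks how the antibody-treated tumours differ from IgG-treated tumours in these genes.

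Macrophages take up lipoproteins, membranes and dead cells, break the lipid down in lysosomes, and then store it in droplets or export it. TREM2 is a surface receptor for lipids and apolipoproteins, and apolipoprotein E (Apoe), phospholipid transfer protein (Pltp) and the transporters ABCA1 and ABCG1 move cholesterol and phospholipid out of the cell onto lipoprotein particles. In tumours, macrophages with high Trem2, Gpnmb, Lpl, Fabp5 and Lgals3 are often called lipid-associated macrophages. Many of the export genes are known targets of the liver X receptors (LXR), nuclear receptors that sense cholesterol derivatives and bind DNA together with RXR.

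Promoter sequence is shown for 3 members, because Pltp had the largest difference between treatment groups in macrophages, Abca1 is a textbook LXR target, and Plin2, a droplet gene, was the only member with 2 kinds of searched motif. Windows came from RefSeq (GRCm38.p6) and were matched for 7 of the 10 genes. Lpl, Fabp5 and Abcg1 had no entry in the table. Each window of 300 bases runs from 250 bases before the start site to 50 after it, and the first 260 bases are printed here, 5′ to 3′ on the gene's strand, with motif matches on either strand in capitals.
Pltp (chr2:164857699-164857958, minus strand): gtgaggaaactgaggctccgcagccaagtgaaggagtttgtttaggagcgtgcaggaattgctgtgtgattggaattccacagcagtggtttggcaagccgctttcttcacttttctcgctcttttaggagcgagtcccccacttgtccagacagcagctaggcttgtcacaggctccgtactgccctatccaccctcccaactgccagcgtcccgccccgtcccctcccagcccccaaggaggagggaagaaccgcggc
Abca1 (chr4:53159886-53160145, minus strand): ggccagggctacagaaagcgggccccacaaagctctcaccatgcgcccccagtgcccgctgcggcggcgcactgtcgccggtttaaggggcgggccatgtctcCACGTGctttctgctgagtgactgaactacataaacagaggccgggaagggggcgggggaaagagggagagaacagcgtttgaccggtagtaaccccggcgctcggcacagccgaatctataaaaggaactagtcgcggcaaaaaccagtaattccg
Plin2 (chr4:86670050-86670309, minus strand): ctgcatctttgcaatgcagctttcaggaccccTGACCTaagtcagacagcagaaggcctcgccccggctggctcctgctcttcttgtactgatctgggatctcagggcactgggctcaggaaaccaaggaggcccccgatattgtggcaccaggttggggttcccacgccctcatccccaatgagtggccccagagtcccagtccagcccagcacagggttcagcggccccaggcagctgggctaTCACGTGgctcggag

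The motifs searched on both strands were the direct repeat DR4 (AGGTCA repeated with any 4 bases between the copies, the arrangement LXR and RXR bind), the direct repeat DR1 (AGGTCA repeated with any 1 base between, the arrangement PPAR and RXR bind), their half-site AGGTCA, the E-box CACGTG, and its longer form TCACGTG, which contains the E-box. None of the windows of the 7 members held a DR4 or a DR1 with these exact letters. Repeats that vary from these letters were not searched for, so this does not show that a window lacks a DR4 or DR1 site. Among all 32851 promoter windows, 0.0152% held the DR4 and 0.0396% the DR1. The half-site stood in the Plin2 window 218 bases before the start site and in the Trem2 window 68 bases before it, and 16.3% of all windows held one. The E-box stood 147 bases before the start of Abca1 and 4 bases before that of Plin2, where it was part of the longer form, against 7.15% and 3.77% of all windows for the E-box and the longer form. These are matches of letters in a window, and no binding was measured.

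The libraries held 26606234 to 47221033 UMIs, and 47603 of 47794 barcodes were kept, with median depths of 2127 to 2703 UMIs per kept cell. Clusters were built without the 10 genes and named from marker lists, so each name means cells like that type. The classes described here are 11375 monocyte/macrophages, 15076 neutrophils, 1252 type 2 conventional dendritic cells (cDC2), 617 migratory dendritic cells, 903 fibroblasts and 2660 tumour/epithelial cells. Clusters rich in reads of very long genes, called nucleus-like here and left unnamed, made up 0.154 to 0.405% of cells in IgG 1, anti-VSIG4 1 and anti-VSIG4 2 and 5.18 to 43.2% in IgG 2, IgG 3 and anti-VSIG4 3. Where the levels of a member described in the 6 classes and their states did not overlap between groups, the change is therefore also given within the few-nucleus and the many-nucleus libraries, where 1 group has a single library that is assumed to vary like the others. Levels are CPM, the UMIs of a gene per 1000000 UMIs summed over a class or state in 1 library. They are listed as IgG 1, 2, 3 and then anti-VSIG4 1, 2, 3, and group values are means ± SD over 3 libraries. Changes are edgeR log2 changes, anti-VSIG4 over IgG, with an approximate standard error (SE) and a p adjusted by Benjamini-Hochberg over all genes of the class or state. The barcode names are running labels, and 11691 of them occur in more than 1 library, so shared cells cannot be read from them.

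The 10 genes fell into 3 kinds by the class that held the most of them (plot of level by cell class). Apoe, Trem2 and Abca1 were highest in monocyte/macrophages in all 6 libraries. Gpnmb and Lgals3 also had their highest means there, but 3 of 6 libraries had more Gpnmb in an unnamed cluster led by Hcar2 and Ccl3, and 3 of 6 had more Lgals3 in cDC2. The other 5 peaked outside macrophages, with Lpl in fibroblasts, Fabp5 in migratory dendritic cells, Pltp in cDC2, Plin2 in the Hcar2-Ccl3-led cluster, and Abcg1 with means of 75.0, 73.5 and 70.1 CPM in endothelial cells, that cluster and neutrophils. These orders cover classes with at least 20 cells in every library. The 177 plasmacytoid dendritic cells, 9 of them in the smallest library, held more Pltp than any of these, at 1301, 1347 and 1018 CPM in IgG and 995, 1361 and 733 CPM in anti-VSIG4, with overlapping groups.

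**Figure D1:**
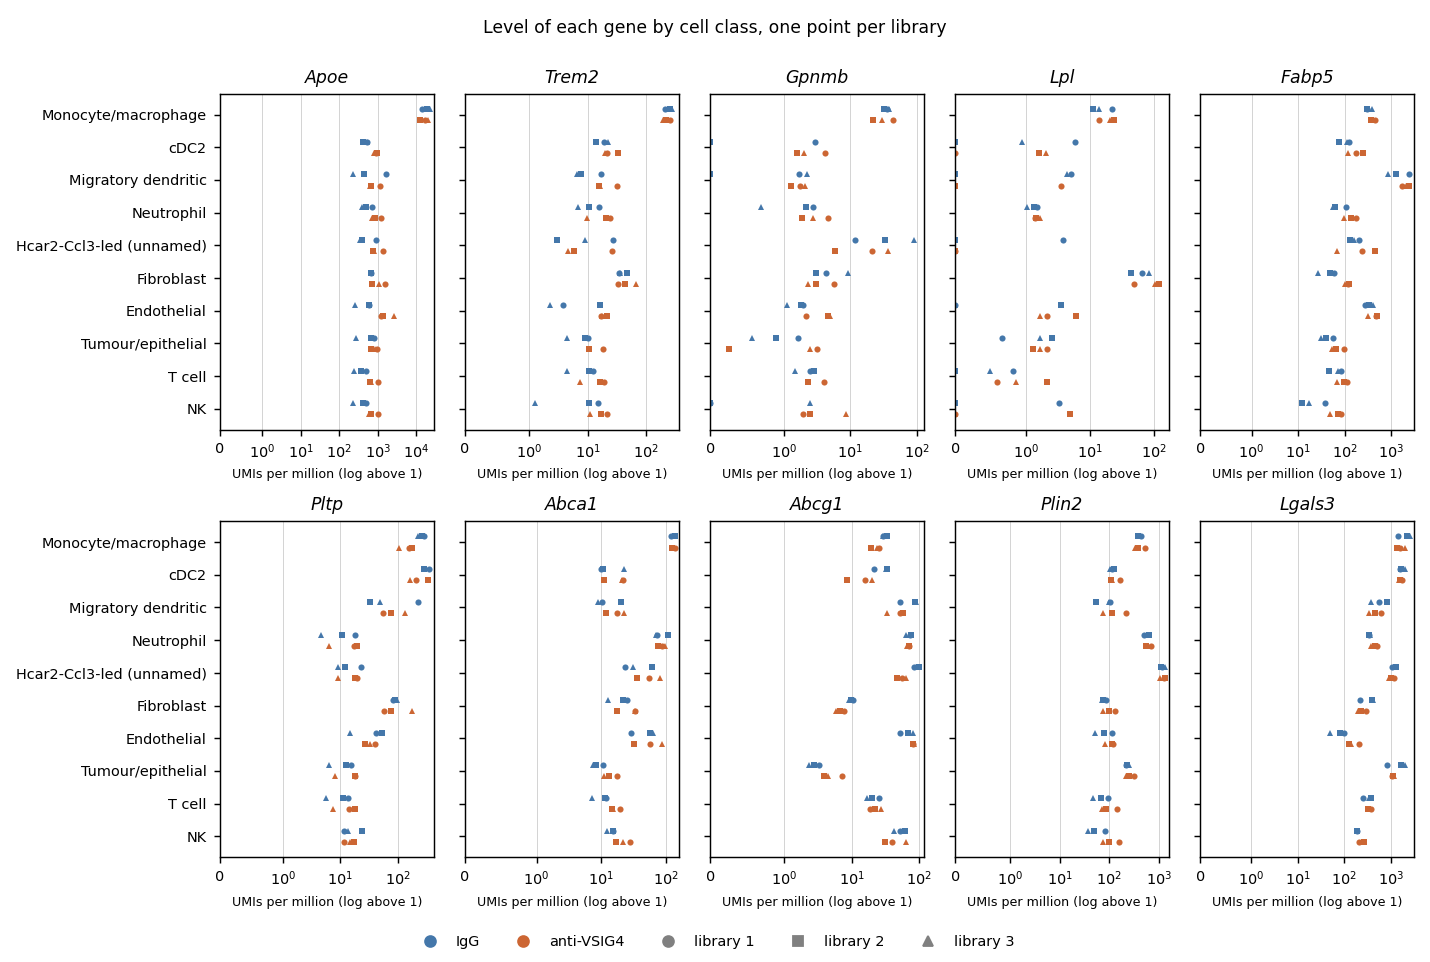
Level of each of the 10 genes (CPM, logarithmic above 1, linear below) in 10 cell classes. Each point is 1 library (blue IgG, orange anti-VSIG4; circle, square and triangle for libraries 1, 2 and 3). Apoe and Trem2 points of monocyte/macrophages lie to the right of every other class, while Lpl peaks in fibroblasts and Fabp5 in migratory dendritic cells.

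Monocyte/macrophages were clustered again into 13 states large enough to test. A named state carries the name of its markers, and the others carry their 2 leading genes. Pltp was highest in resident-type macrophages, Saa3 Marco macrophages and Ccl8-Ms4a7-led cells (means of 588, 514 and 460 CPM over 6 libraries) and lowest in classical monocytes (60.4 CPM). Apoe was highest in C1q macrophages (44422 CPM) and lowest in classical monocytes (6904 CPM). The Mmp12-Tnfrsf9-led state, whose cells raised 7 of 7 markers of Arg1 macrophages, held the highest mean of Gpnmb, Lpl, Fabp5 and Lgals3. Neighbours in these orders often overlapped: the mean of Pltp in resident-type macrophages was 1.15 times that in Saa3 Marco macrophages, and 4 of 6 libraries had that order.

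**Figure D2:**
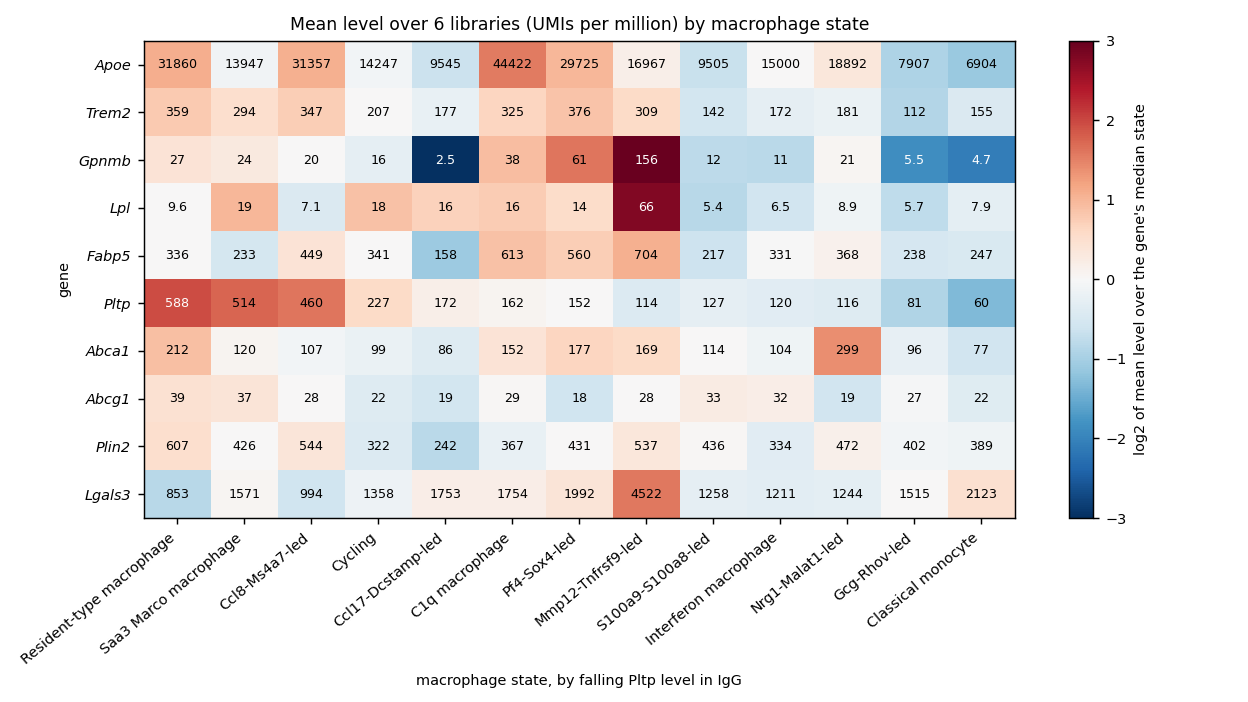
Mean level over 6 libraries (printed in each cell, CPM) of the 10 genes in 13 macrophage states, ordered by falling Pltp level in IgG. Colour is the log2 of that mean over the gene's median state; the Mmp12-Tnfrsf9-led column holds the highest values of Gpnmb and Lpl, and the 3 leftmost columns the highest of Pltp.

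In the comparison of treatments, no member passed a false discovery rate of 0.05 in any of the 6 classes or 13 states. The background was as low: edgeR called 0.0% of genes in monocyte/macrophages (0 of 13007), cDC2, migratory dendritic cells, fibroblasts and tumour/epithelial cells, and 0.00924% in neutrophils (1 of 10828). At an unadjusted p under 0.05, edgeR marked 529 of the 13007 genes in monocyte/macrophages. That is no more than this threshold marks on average where no gene changes. DESeq2 called 23 genes there, Pltp among them. DESeq2 also called Pltp in Ccl17-Dcstamp-led cells, and no other member in these classes and states. Over the states, edgeR called 0.0% of genes in 10 of them, 0.0217% in Ccl8-Ms4a7-led cells, 0.0131% in classical monocytes and 0.0302% in Saa3 Marco macrophages, 4 genes in all and no member. In monocyte/macrophages, 8 of the 10 members had a log2 change below 0 (median -0.19, against 0.00 over all genes tested). In 2 of the 10 members, Pltp and Abcg1, every anti-VSIG4 library lay below every IgG library, as did 3.59% of all genes tested. The groups overlapped for the other 8.

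**Figure D3:**
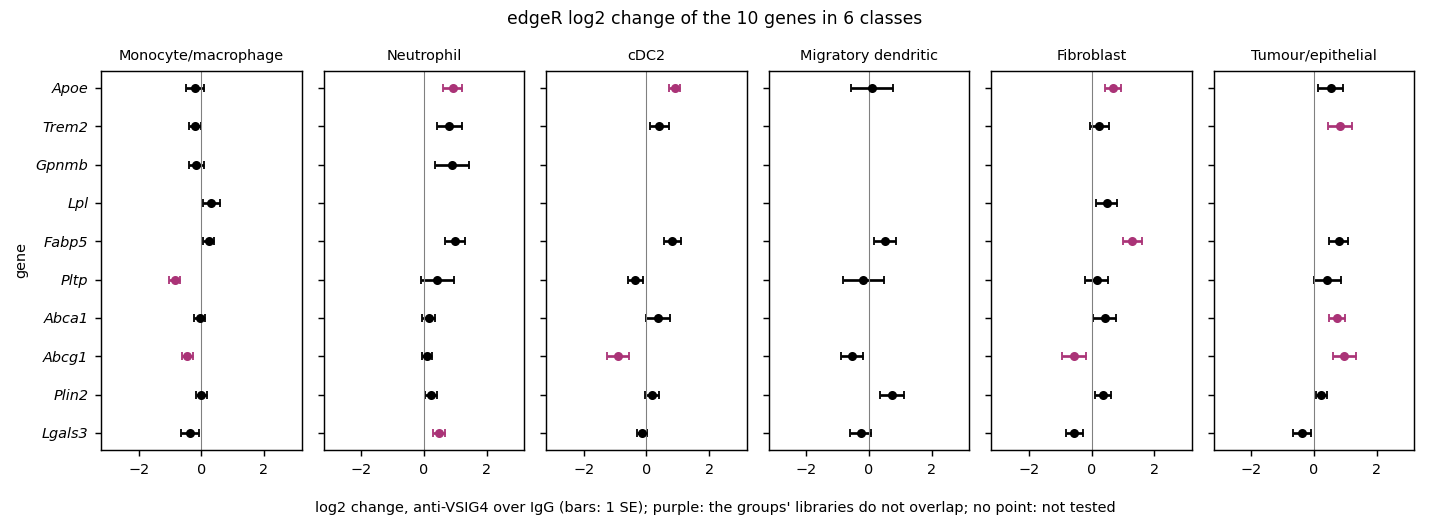
edgeR log2 change, anti-VSIG4 over IgG, of the 10 genes in 6 classes. Points are estimates, bars 1 approximate standard error, purple marks genes whose 2 groups of libraries do not overlap, and a missing point was not tested. Pltp and Abcg1 are the purple points of monocyte/macrophages, both left of 0.

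Pltp, the lipid transfer protein that moves phospholipid between lipoproteins, had the largest difference of the 10 genes in monocyte/macrophages. Its level there was 289, 265 and 229 CPM in IgG and 156, 180 and 107 CPM in anti-VSIG4. All 3 anti-VSIG4 libraries lay below all 3 IgG libraries. The means were 261 ± 30.3 and 148 ± 37.4 CPM, a 1.77-fold difference (log2 change -0.86 ± 0.185, edgeR adjusted p = 0.706). The change was -0.77 within the few-nucleus libraries (edgeR adjusted p = 0.367). Within the many-nucleus libraries it was -1.17 (edgeR adjusted p = 8.6e-06), where anti-VSIG4 3, the lowest library, was the only anti-VSIG4 library. DESeq2 over all 6 libraries gave an adjusted p of 0.0125. The share of macrophages with at least 1 Pltp UMI, after thinning every cell to 1000 UMIs, was 17.3 ± 2.39% in IgG and 10.6 ± 2.57% in anti-VSIG4, with an exact permutation p of 0.1, the smallest that 3 against 3 libraries allow. Without thinning the shares were 41.8% and 32.7%, at a median of 4510 UMIs per cell. The same thinned shares in T cells, which should lack the gene, were 0.902% and 1.24%, at a median of 3010 UMIs.

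The change of Pltp was below 0 in each of the 13 states, from -1.42 to -0.23, with edgeR adjusted p from 0.162 to 1.0. States of 1 library share that library, so they are not 13 replicates. The S100a9-S100a8-led state had 4 neutrophil markers and no marker of its best-matching macrophage state among its 10 leading genes, so another lineage leads it. Leaving out the cells with the highest doublet scores took it from 49 to 8 cells in IgG 2 and from 130 to 38 in anti-VSIG4 1. Without this and the other sub-clusters led by other lineages, an alternative added after seeing the data, the change of Pltp in all macrophages was -0.85. In Ccl17-Dcstamp-led cells Pltp was 242, 203 and 258 CPM in IgG and 102, 139 and 89.7 CPM in anti-VSIG4. That is 2.13 times as high in IgG (log2 change -1.13 ± 0.206, edgeR adjusted p = 0.162), and the change was -1.004 and -1.34 within the few-nucleus and many-nucleus libraries. It passed with DESeq2 (adjusted p = 0.0114) and in edgeR with the kind of library as a covariate (adjusted p = 0.00817). In the Cycling state Pltp was 298, 319 and 327 CPM in IgG and 141, 183 and 91.7 CPM in anti-VSIG4 (log2 change -1.17 ± 0.245, edgeR adjusted p = 0.589; -0.88 and -1.70 within the 2 kinds of library). In both states the groups did not overlap, which held for 3.83% of genes in the first and 4.85% in the second.

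In Mmp12-Tnfrsf9-led cells Pltp was 104, 213 and 180 CPM in IgG and 51.5, 93.5 and 45.2 CPM in anti-VSIG4. The lowest IgG library was above the highest anti-VSIG4 library (log2 change -1.42 ± 0.321, edgeR adjusted p = 0.41), but the change within the few-nucleus libraries was -0.50 and within the many-nucleus libraries -2.02. Without IgG 1 it was -1.68 (edgeR adjusted p = 0.0237). Interferon macrophages had 182, 145 and 121 CPM in IgG and 98.2, 107 and 69.6 CPM in anti-VSIG4 (log2 change -0.73 ± 0.249; -0.73 and -0.91 within), and the groups did not overlap. Pf4-Sox4-led cells had 175, 174 and 185 CPM in IgG and 131, 156 and 90.5 CPM in anti-VSIG4 (log2 change -0.54 ± 0.227; -0.25 and -0.96 within), again without overlap. Counting all members, 2 in each of these 3 states lay lower without overlap, where 4.67%, 3.62% and 3.07% of all genes did.

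The states richest in Pltp overlapped between groups. Resident-type macrophages had 833, 783 and 581 CPM in IgG and 692, 388 and 252 CPM in anti-VSIG4 (log2 change -0.71 ± 0.313). Anti-VSIG4 1 lay among the IgG libraries there, and the state held only 29 cells in IgG 2 and 22 in IgG 3. Saa3 Marco macrophages, which express an acute-phase protein and a scavenger receptor, had 802, 492 and 392 CPM in IgG and 386, 484 and 526 CPM in anti-VSIG4. The change of -0.23 ± 0.286 in Saa3 Marco macrophages turned to 0.04 without IgG 1, and was -0.84 and 0.36 within the few-nucleus and many-nucleus libraries. In Ccl8-Ms4a7-led cells the levels were 659, 519 and 388 CPM in IgG and 372, 535 and 288 CPM in anti-VSIG4.

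The other 5 states had lower levels and overlapping groups. S100a9-S100a8-led cells had 195, 143 and 131 CPM against 132, 78.5 and 82.1 CPM, and Nrg1-Malat1-led cells 157, 135 and 129 CPM against 92.0, 138 and 48.1 CPM. C1q macrophages had 162, 126 and 273 CPM against 145, 159 and 104 CPM. In Gcg-Rhov-led cells the values were 137, 61.1 and 77.7 CPM against 75.4, 98.8 and 37.7 CPM. The state named classical monocytes had 101, 52.0 and 43.7 CPM against 43.9, 85.8 and 35.6 CPM, and its change of -0.27 became 0.09 without IgG 1. This state joins clusters of 1034 and 697 cells, and the larger also had Arg1 and Ccl24 among its 10 leading genes.

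**Figure D4:**
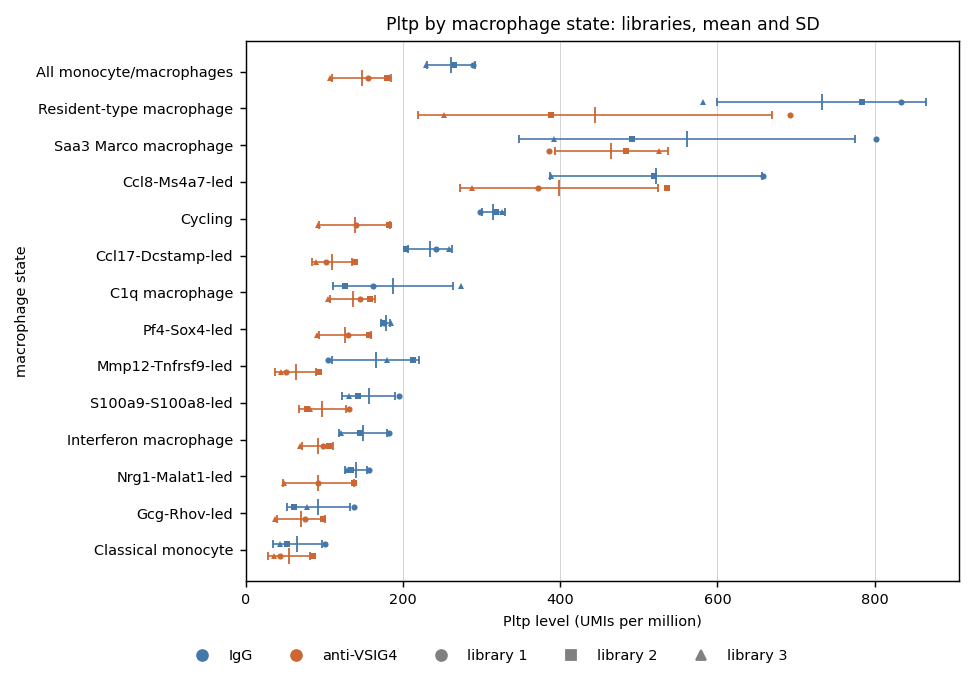
Pltp level (CPM) in all monocyte/macrophages and in 13 states. Each point is 1 library (blue IgG, orange anti-VSIG4; circle, square and triangle for libraries 1, 2 and 3), the tall tick is the mean of 3 libraries and the bar 1 SD. The groups separate in Cycling and Ccl17-Dcstamp-led cells and overlap in resident-type, Saa3 Marco and Ccl8-Ms4a7-led cells.

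Shares of the states richest in Pltp were also compared. Saa3 Marco macrophages, one of these 3 states, made up 8.38, 18.9 and 12.7% of macrophages in IgG and 3.52, 8.32 and 4.66% in anti-VSIG4. The means were 13.3 ± 5.28% and 5.50 ± 2.51% (exact permutation p = 0.1), and the highest anti-VSIG4 library lay just under the lowest IgG library. The difference was -2.46 percentage points within the few-nucleus and -11.1 within the many-nucleus libraries. At macrophage resolution 0.5 the share of Saa3 Marco macrophages differed by -8.20 percentage points (exact permutation p = 0.2), and the groups overlapped. Ccl8-Ms4a7-led cells were also lower without overlap, at 4.79 ± 0.258% in IgG and 3.63 ± 0.737% in anti-VSIG4 (exact permutation p = 0.1). The nearest libraries of this state almost met, with 4.51% for IgG 3 against 4.47% for anti-VSIG4 1. No state of this name formed at macrophage resolution 0.5, so its share could not be compared there. Resident-type macrophages, the state richest in Pltp, were higher on average, at 3.17 ± 2.25% and 3.89 ± 1.55% (exact permutation p = 0.8). With the 13 states held at the same mix in every library, Pltp was 268, 212 and 200 CPM in IgG and 154, 182 and 125 CPM in anti-VSIG4. The log2 difference at this fixed mix was -0.56 (exact permutation p = 0.1), the groups did not overlap, and it was -0.68 and -0.72 within the few-nucleus and many-nucleus libraries. With the 10 states of macrophage resolution 0.5 at a fixed mix it was -0.72. The edgeR change of -0.86 rests on summed UMIs, where deeper states weigh more, while the fixed mix weighs states by cell shares. The step from -0.86 to -0.56 is therefore not a measure of the part of the mix, which was not tested. For Abcg1 the fixed-mix values were 29.9, 30.5 and 28.2 CPM against 26.1, 18.1 and 24.4 CPM, a log2 difference of -0.38 (exact permutation p = 0.1; -0.46 and -0.26 within). For the other 8 members the fixed-mix differences ran from -0.32 for Lgals3 to 0.36 for Lpl, with exact permutation p of 0.3 to 1.0.

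In the other 5 classes the groups of Pltp overlapped. In cDC2, antigen-presenting cells, it was 348, 292 and 285 CPM in IgG and 211, 343 and 166 CPM in anti-VSIG4, with anti-VSIG4 2 among the IgG libraries (log2 change -0.35 ± 0.247, edgeR adjusted p = 0.999). In fibroblasts it was 83.4, 90.0 and 96.2 CPM against 57.5, 76.0 and 179 CPM, and the change of 0.16 ± 0.372 became -0.45 without anti-VSIG4 3, whose fibroblasts numbered 54. In migratory dendritic cells it was 225, 32.8 and 48.8 CPM against 56.1, 77.6 and 132 CPM, and the change of -0.18 ± 0.645 became 1.23 without IgG 1. Neutrophils held 17.8, 10.9 and 4.54 CPM against 17.4, 19.5 and 6.38 CPM (log2 change 0.42 ± 0.52), and tumour/epithelial cells 15.5, 12.7 and 6.27 CPM against 18.2, 18.3 and 7.91 CPM (log2 change 0.42 ± 0.426).

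The difference between classes was tested directly, as the change in macrophages minus the change in the other class. For Pltp it was -1.30 against neutrophils (edgeR adjusted p = 0.577), -1.30 against tumour/epithelial cells (0.582), -1.05 against migratory dendritic cells (0.543), -0.91 against fibroblasts (0.985) and -0.48 against cDC2 (1.0). None passed, so the data do not show that the change of Pltp is particular to macrophages. In these tests of the difference, edgeR called 0.015% of genes against neutrophils, 0.0% against tumour/epithelial cells, 0.0927% against migratory dendritic cells, 0.0226% against fibroblasts and 0.00839% against cDC2. Without IgG 1, the edgeR adjusted p was 0.0118 against neutrophils, 6.5e-05 against migratory dendritic cells and 0.0267 against tumour/epithelial cells. Leaving out any other library, none of these passed. The shares of genes called above are from all 6 libraries. The share called without IgG 1 is not given, so these passes have no background beside them. Pltp in neutrophils and tumour/epithelial cells was on average 6.70% and 7.02% of its macrophage level, against 6.22% in T cells, which should lack it. C1qa, C1qb and C1qc stood at 3.97 to 5.19% in neutrophils and 3.87 to 5.04% in tumour/epithelial cells. The part of free macrophage RNA in these contrasts was not tested.

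Apoe, the apolipoprotein that macrophages secrete with lipid, had a level of 14379, 19155 and 23248 CPM in IgG macrophages and 17216, 12524 and 20199 CPM in anti-VSIG4 macrophages. The groups overlapped (18927 ± 4439 and 16647 ± 3869 CPM, log2 change -0.20 ± 0.29, edgeR adjusted p = 1.0). The change was 0.06 within the few-nucleus and -0.03 within the many-nucleus libraries. In C1q macrophages, the state with the most Apoe, it was 34828, 53135 and 60684 CPM against 32810, 33575 and 51498 CPM, and the state changes ran from -0.45 to 0.14. In no state did the groups of Apoe separate, and the share of thinned macrophages with an Apoe UMI was 91.0 ± 1.20% and 92.5 ± 3.48%.

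In the other classes Apoe was low and, in most, higher in anti-VSIG4. In cDC2 it was 533, 405 and 515 CPM in IgG and 926, 973 and 794 CPM in anti-VSIG4, a 1.85-fold difference without overlap (log2 change 0.90 ± 0.173, edgeR adjusted p = 0.867; 0.87 and 0.79 within the few-nucleus and many-nucleus libraries). In fibroblasts it was 677, 666 and 681 CPM against 1561, 736 and 1061 CPM (log2 change 0.68 ± 0.259, edgeR adjusted p = 0.758; 0.70 and 0.61 within). In neutrophils it was 715, 501 and 387 CPM against 1260, 835 and 729 CPM (log2 change 0.92 ± 0.302, edgeR adjusted p = 0.835; 0.62 and 0.89 within). In both, the lowest anti-VSIG4 library was just above the highest IgG library. Endothelial cells, with 612, 582 and 261 CPM against 1222, 1371 and 2664 CPM, had the largest difference of the classes listed here (log2 change 1.79 ± 0.447, edgeR adjusted p = 0.714; 0.97 and 2.63 within). DESeq2 gave an adjusted p of 0.007 for it. Tumour/epithelial cells (797, 662 and 273 CPM against 966, 661 and 848 CPM; log2 change 0.52 ± 0.389, and -0.00 within the few-nucleus libraries) overlapped. Migratory dendritic cells had 1691, 444 and 233 CPM against 1137, 679 and 630 CPM, and their change of 0.09 ± 0.667 became 1.37 without IgG 1 (edgeR adjusted p = 0.0422).

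These levels ran with those of other macrophage transcripts in the same classes (plot of Apoe and macrophage transcripts). Apoe in neutrophils, T cells, NK cells and tumour/epithelial cells was on average 3.46 to 4.47% of its macrophage level in the same library. The complement genes C1qa, C1qb and C1qc, which these cells should lack, stood at 3.31 to 5.19% there. In T cells C1qc was 67.2, 64.0 and 42.3 CPM in IgG and 149, 81.1 and 117 CPM in anti-VSIG4, so it too was higher in every anti-VSIG4 library, and Apoe in T cells was 491, 371 and 241 CPM against 1032, 642 and 656 CPM. In fibroblasts all 11 genes of the macrophage marker list were higher in anti-VSIG4, with a sum of 295 to 654 CPM in IgG and 673 to 1156 CPM in anti-VSIG4, and none at 0. In cDC2, 2 of those 11 were higher (1480 to 2754 and 1462 to 2422 CPM), and in neutrophils 10 of 11 were (541 to 867 and 808 to 1191 CPM). In endothelial cells all 11 were higher (159 to 484 and 906 to 1263 CPM), as were 7 of 8 neutrophil markers (118 to 677 and 972 to 2540 CPM). The part of free macrophage RNA in these values of Apoe was not tested. Migratory dendritic cells of IgG 1, the library with their highest Apoe and Pltp, also had 602 CPM of C1qa against 71.0 to 487 CPM in the other 5 libraries.

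**Figure D5:**
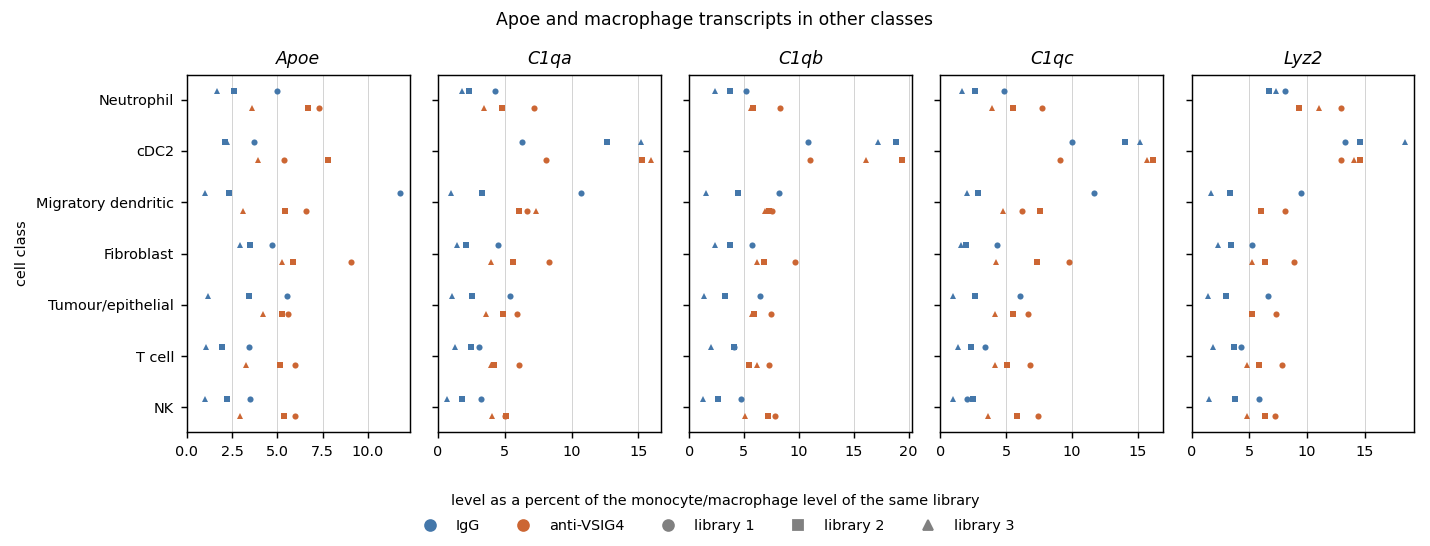
Level of Apoe and of 4 macrophage transcripts in 7 other classes, as a percent of the monocyte/macrophage level of the same library. Each point is 1 library (blue IgG, orange anti-VSIG4; circle, square and triangle for libraries 1, 2 and 3). In T cells the C1qa, C1qb, C1qc and Lyz2 points of anti-VSIG4 all lie to the right of the IgG points, as for Apoe they nearly do.

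The test of Apoe between classes gave changes in macrophages minus those elsewhere of -1.15 against neutrophils (edgeR adjusted p = 0.742), -1.14 against cDC2 (1.0), -0.87 against migratory dendritic cells (0.831), -0.85 against fibroblasts (0.938) and -0.83 against tumour/epithelial cells (1.0). None passed. Without IgG 1, the edgeR adjusted p was 0.0324 against neutrophils, 0.0159 against cDC2 and 6.5e-05 against migratory dendritic cells. Leaving out any other library, none of these passed. The share of all genes called without IgG 1 is not given for comparison.

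Trem2, the lipid receptor, was 218, 264 and 285 CPM in IgG macrophages and 264, 219 and 199 CPM in anti-VSIG4 macrophages, with wide overlap. Its level in macrophages was 5.55 times that in fibroblasts, the next class, and the fibroblast level of 18.7% of the macrophage level was above that of C1qa, C1qb and C1qc there (4.33 to 5.73%). Fibroblasts held 34.1, 47.5 and 35.5 CPM in IgG and 33.0, 44.4 and 66.7 CPM in anti-VSIG4. Pf4-Sox4-led cells, resident-type macrophages and Ccl8-Ms4a7-led cells had the highest means, of 376, 359 and 347 CPM, which differ by less than their spread.

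In C1q macrophages Trem2 was 317, 371 and 439 CPM in IgG and 283, 285 and 256 CPM in anti-VSIG4. Every anti-VSIG4 library was below every IgG library there (log2 change -0.55 ± 0.217, edgeR adjusted p = 0.999; -0.18 and -0.66 within the few-nucleus and many-nucleus libraries). In resident-type macrophages the order was the opposite, with 294, 348 and 347 CPM in IgG and 380, 376 and 409 CPM in anti-VSIG4 (log2 change 0.25 ± 0.251; 0.43 and 0.30 within). Only 29 cells of IgG 2 and 22 of IgG 3 were in that state. Mmp12-Tnfrsf9-led cells (309, 330 and 395 CPM against 285, 231 and 303 CPM) and Ccl17-Dcstamp-led cells (187, 183 and 195 CPM against 180, 166 and 149 CPM) were lower without overlap, by -0.23 and -0.15 within the few-nucleus and many-nucleus libraries in the first and -0.11 and -0.31 in the second. In tumour/epithelial cells Trem2 was 10.2, 8.99 and 4.49 CPM against 18.7, 10.7 and 10.6 CPM (0.51 and 0.74 within), or 4.50% of the macrophage level on average, as C1qc was at 4.32%. For the members together, 2 of 10 in C1q macrophages were lower without overlap, where 2.4% of genes were, and 1 of 8 in resident-type macrophages was higher and 1 lower, where 4.36% and 4.75% were.

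Gpnmb, a membrane glycoprotein of lysosome-rich macrophages, was 35.2, 32.1 and 38.1 CPM in IgG macrophages and 43.6, 21.6 and 29.9 CPM in anti-VSIG4 macrophages. Mmp12-Tnfrsf9-led cells held 271, 134 and 98.8 CPM in IgG and 242, 45.5 and 145 CPM in anti-VSIG4, 2.57 times the mean of the next state. In C1q macrophages it was 35.0, 53.0 and 62.1 CPM against 33.1, 25.1 and 20.9 CPM, and in Saa3 Marco macrophages 18.5, 32.1 and 56.1 CPM against 15.9, 8.32 and 15.8 CPM. Both states separated by group (log2 changes -0.98 ± 0.308 and -1.45 ± 0.474, edgeR adjusted p = 0.999 and 0.609). The nearest libraries were close, at 35.0 and 33.1 CPM in C1q and 18.5 and 15.9 CPM in Saa3 Marco macrophages. The latter values rest on few UMIs, since all genes summed to 865769 UMIs in IgG 1 and 502141 in anti-VSIG4 1. Within the few-nucleus libraries the changes were -0.25 and -0.64, and within the many-nucleus libraries -1.44 and -1.34. In Saa3 Marco macrophages 1 of the 10 members was lower and 1 higher without overlap, where 5.45% and 4.39% of genes were.

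Lgals3, galectin-3, which binds damaged endosomes and cell-surface sugars, was 1465, 2260 and 2658 CPM in IgG macrophages and 1597, 1365 and 2062 CPM in anti-VSIG4 macrophages. The cDC2 level was close, at 1613, 1696 and 2075 CPM against 1724, 1628 and 1488 CPM. Mmp12-Tnfrsf9-led cells held 3890, 5960 and 5594 CPM against 3911, 2469 and 5311 CPM, 2.13 times the next state and above it in all 6 libraries, while resident-type macrophages held the least (853 CPM). In neutrophils Lgals3 was 337, 336 and 358 CPM in IgG and 520, 450 and 371 CPM in anti-VSIG4 (log2 change 0.49 ± 0.188, edgeR adjusted p = 0.851; 0.58 and 0.27 within the few-nucleus and many-nucleus libraries). In neutrophils 9 members were tested and all 9 had changes above 0 (median 0.49, against -0.01 over all genes). Apoe, Trem2, Gpnmb and Pltp stood there at 4.47 to 7.48% of their macrophage level on average, where C1qa, C1qb and C1qc stood at 3.97 to 5.19%. The other members tested were at 22.5% or more. The part of free macrophage RNA in these changes was not tested. The groups did not overlap for 2 of the 9, Apoe and Lgals3, as for 2.74% of all genes in that direction.

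Abca1, which exports cholesterol to lipid-poor apolipoproteins, was level between groups in macrophages, at 120, 137 and 136 CPM in IgG and 137, 123 and 124 CPM in anti-VSIG4. Its highest state was Nrg1-Malat1-led cells (299 CPM), above resident-type macrophages in all 6 libraries. In resident-type macrophages it was 232, 252 and 291 CPM against 140, 194 and 164 CPM. No anti-VSIG4 library reached the IgG range there (log2 change -0.63 ± 0.269, edgeR adjusted p = 0.997; -0.43 and -0.66 within the few-nucleus and many-nucleus libraries). The values of IgG 2 and IgG 3 rest on 29 and 22 cells. Pf4-Sox4-led cells went the other way, with 160, 171 and 168 CPM against 205, 182 and 178 CPM (log2 change 0.16 ± 0.213; 0.32 and 0.10 within), and 3.67% of genes in that state were higher without overlap. Neutrophils held 72.4, 107 and 71.0 CPM against 85.4, 76.6 and 95.3 CPM.

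Abcg1, which exports cholesterol to mature lipoproteins, was 29.5, 33.2 and 28.7 CPM in IgG macrophages and 25.2, 19.2 and 23.3 CPM in anti-VSIG4 macrophages. The groups did not overlap (30.4 ± 2.39 and 22.6 ± 3.09 CPM, log2 change -0.45 ± 0.182, edgeR adjusted p = 1.0; -0.39 and -0.37 within the few-nucleus and many-nucleus libraries). In cDC2 it was 21.3, 32.9 and 32.2 CPM against 15.7, 8.45 and 20.2 CPM, also without overlap (log2 change -0.91 ± 0.34, edgeR adjusted p = 0.999; -0.75 and -0.68 within). For the 8 members tested in cDC2, 1 was lower and 1 higher without overlap, as were 5.29% and 3.96% of genes.

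Among the states, Abcg1 was most uniform in the IgG libraries of interferon macrophages, with 41.2, 40.3 and 40.8 CPM against 24.5, 20.8 and 26.2 CPM in anti-VSIG4 (log2 change -0.74 ± 0.317, edgeR adjusted p = 0.998; -0.72 and -0.60 within). Gcg-Rhov-led cells (34.3, 28.8 and 47.8 CPM against 24.7, 3.09 and 24.6 CPM; -0.95 and -0.55 within) and Pf4-Sox4-led cells (23.6, 21.2 and 18.5 CPM against 16.8, 13 and 17.6 CPM; -0.59 and -0.16 within) were also lower without overlap. In Gcg-Rhov-led cells, whose leading gene is an islet hormone, 1 of 8 members was lower and 1 higher, where 4.19% and 3.76% of genes were. The Hcar2-Ccl3-led cluster, which was not tested, held 85.0, 98.9 and 89.9 CPM against 56.2, 47.5 and 63.7 CPM, so every anti-VSIG4 library was below every IgG library there too (log2 differences of -0.72 and -0.57 within). Endothelial cells and neutrophils overlapped: endothelial cells held 51.6, 68.9 and 82.3 CPM against 80.8, 80.7 and 85.4 CPM, and neutrophils 72.1, 75.4 and 62.9 CPM against 72.1, 71.3 and 66.6 CPM. In fibroblasts Abcg1 was 10.3, 9.86 and 9.13 CPM against 7.55, 6.69 and 5.85 CPM (-0.58 and -0.74 within), and in tumour/epithelial cells 3.30, 2.76 and 2.35 CPM against 7.23, 3.92 and 4.37 CPM (log2 change 0.96 ± 0.37; 0.74 and 0.85 within), so anti-VSIG4 was lower in fibroblasts and higher in tumour/epithelial cells, each without overlap.

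Lpl, the secreted enzyme that frees fatty acids from lipoproteins, was 65.7, 43.2 and 84.9 CPM in IgG fibroblasts and 49.1, 120 and 103 CPM in anti-VSIG4 fibroblasts. That was 4.42 times the macrophage level, which was 22.1, 11.0 and 14.0 CPM against 14.1, 23.4 and 20.9 CPM. Both classes overlapped between groups. In Mmp12-Tnfrsf9-led cells Lpl was 66.2, 27.2 and 14.9 CPM against 87.3, 52.3 and 146 CPM (log2 change 1.53 ± 0.59, edgeR adjusted p = 0.997). The change was 0.11 within the few-nucleus (edgeR adjusted p = 0.998) and 2.83 within the many-nucleus libraries (edgeR adjusted p = 9.2e-15), where anti-VSIG4 3 was the only anti-VSIG4 library. In Saa3 Marco macrophages it was 43.9, 12.9 and 28.0 CPM against 1.99, 20.2 and 8.36 CPM (log2 change -1.28 ± 0.576), with overlap.

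Fabp5, a fatty acid carrier of the cytosol, was 2440, 1298 and 865 CPM in IgG and 1718, 2417 and 2135 CPM in anti-VSIG4 migratory dendritic cells, 4.66 times its level in endothelial cells. In macrophages it was 309, 308 and 388 CPM against 457, 371 and 377 CPM, with anti-VSIG4 2 and 3 below IgG 3. In fibroblasts it was 59.6, 48.7 and 26.3 CPM in IgG and 117, 125 and 101 CPM in anti-VSIG4, so the groups were far apart (44.9 ± 17.0 and 114 ± 12.6 CPM, a 2.55-fold difference). The log2 change was 1.30 ± 0.31 (edgeR adjusted p = 0.44), and 0.98 and 1.36 within the few-nucleus and many-nucleus libraries. Fabp5 in fibroblasts was on average 21.3% of the macrophage level, above the C1q genes, but in T cells it was 21.6% as well. Of the 9 members tested in fibroblasts, 2 (Apoe and Fabp5) were higher without overlap, as were 5.71% of genes, and 1 (Abcg1) was lower, as were 5.08%. All 6 genes of the pericyte and smooth muscle list were also higher in anti-VSIG4 fibroblasts, with a sum of 1527 to 2156 CPM in IgG and 3341 to 4063 CPM in anti-VSIG4, and their part in these values was not tested.

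Fabp5 was also higher in 11 of 13 macrophage states. In the Cycling state it was 174, 188 and 284 CPM in IgG and 390, 430 and 580 CPM in anti-VSIG4, without overlap (log2 change 1.17 ± 0.258, edgeR adjusted p = 0.593; 1.23 and 1.44 within the few-nucleus and many-nucleus libraries), while 3.74% of genes there were higher without overlap. Ccl8-Ms4a7-led cells had 237, 350 and 388 CPM against 602, 665 and 453 CPM (log2 change 0.75 ± 0.262, edgeR adjusted p = 0.998; 1.47 and 0.26 within), and 4.99% of genes there were higher without overlap. Gcg-Rhov-led cells had 184, 144 and 149 CPM against 395, 198 and 361 CPM (log2 change 1.03 ± 0.289; 0.80 and 1.34 within), and Saa3 Marco macrophages 76.2, 190 and 247 CPM against 299, 288 and 299 CPM (log2 change 0.75 ± 0.383; 1.98 and 0.56 within). The groups did not overlap in these states. With the kind of library as a covariate Fabp5 passed in the Cycling state (edgeR adjusted p = 0.0313). In resident-type macrophages, with 29 cells in IgG 2 and 22 in IgG 3, it was 112, 108 and 637 CPM against 348, 376 and 433 CPM. The change of 0.48 ± 0.749 there became 1.85 without IgG 3 (edgeR adjusted p = 0.0409). The state with the most Fabp5, Mmp12-Tnfrsf9-led cells, went the other way, with 1262, 624 and 465 CPM against 695, 588 and 591 CPM and wide overlap.

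In neutrophils Fabp5 was 106, 63.1 and 55.9 CPM against 179, 137 and 99.7 CPM (log2 change 0.99 ± 0.309, edgeR adjusted p = 0.792; 0.65 and 0.91 within the few-nucleus and many-nucleus libraries). In cDC2 it was 124, 74.2 and 111 CPM against 178, 248 and 120 CPM (log2 change 0.83 ± 0.263; 0.82 and 0.39 within), and in tumour/epithelial cells 56.0, 39.9 and 31.2 CPM against 96.9, 64.0 and 53.8 CPM (log2 change 0.79 ± 0.295; 0.49 and 0.67 within). In all 3 classes the lowest anti-VSIG4 library lay below the highest IgG library. In tumour/epithelial cells Abca1 was 10.5, 8.29 and 7.55 CPM against 17.4, 13.3 and 11.2 CPM (log2 change 0.72 ± 0.26; 0.51 and 0.57 within), and 3 of the 8 members tested there, Trem2, Abca1 and Abcg1, were higher without overlap, as were 2.8% of genes. In the same tumour/epithelial sums all 11 macrophage markers were higher in anti-VSIG4 (196 to 782 CPM in IgG and 581 to 831 CPM in anti-VSIG4), as were 7 of 8 neutrophil markers (193 to 916 and 453 to 1787 CPM) and all 4 haemoglobin genes (6.77 to 58.0 and 31.9 to 121 CPM), while all 7 tumour markers were lower (11704 to 17462 and 9852 to 14150 CPM). Their part in the values of the members was not tested.

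Plin2, the coat protein of lipid droplets, was highest in the Hcar2-Ccl3-led cluster, at 1124, 1112 and 1299 CPM in IgG and 1277, 1347 and 1037 CPM in anti-VSIG4. That was 2.04 times its neutrophil level and above it in all 6 libraries. Neutrophils held 489, 621 and 591 CPM against 677, 543 and 598 CPM, and macrophages 434, 379 and 381 CPM against 513, 369 and 332 CPM. The groups overlapped in each. Among states it ran from 242 CPM in Ccl17-Dcstamp-led cells to 607 CPM in resident-type macrophages, and the state changes lay between -0.09 and 0.21.

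Related lipid genes were read in macrophages from lists that do not contain the 10 members, and none of their genes passed the test. Of 17 tested genes of cholesterol synthesis and its regulation, 3 had a change below 0 (median 0.24, against 0.00 over all genes). The farnesyl diphosphate synthase Fdps was 27.7 ± 2.38 and 39.2 ± 5.48 CPM in the IgG and anti-VSIG4 groups (log2 change 0.48 ± 0.159), and the lanosterol demethylase Cyp51 19.0 ± 6.13 and 29.0 ± 10.9 CPM (0.59 ± 0.263). Of 13 other LXR and cholesterol efflux genes, 9 were below 0 (median -0.12), among them the LXR target Smpdl3a (57.0 ± 12 and 44.9 ± 5.73 CPM) and the lysosomal cholesterol carrier Npc2 (1766 ± 316 and 1381 ± 209 CPM). Of 13 lysosomal lipid breakdown genes, 10 were below 0 (median -0.14), with the saposin precursor Psap at 6418 ± 709 and 4891 ± 869 CPM and the lysosomal membrane protein Lamp2 at 173 ± 10.5 and 154 ± 12.9 CPM.

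All 5 TREM2 signalling genes were below 0 (median -0.10), with Vav3 at 36.4 ± 12 and 27.9 ± 8.31 CPM and the phospholipase Plcg2 at 53.7 ± 3.77 and 48.0 ± 3.28 CPM. Of 12 further lipid-associated macrophage genes, 4 were below 0 (median 0.12), with the cathepsin Ctsb at 1390 ± 23.2 and 1075 ± 131 CPM and the growth factor Csf1 at 26.2 ± 5.01 and 37.2 ± 10.8 CPM. Of 16 genes of fatty acid uptake, storage and lipolysis 10 were below 0 (median -0.04), with the lipase inhibitor G0s2 at 500 ± 246 and 970 ± 722 CPM and the acyl-CoA synthetase Acsl4 at 44.0 ± 7.52 and 53.2 ± 9.76 CPM. G0s2 was also among the 10 leading genes of neutrophil clusters and of the S100a9-S100a8-led state. The part of neutrophil RNA in its macrophage level was not tested. Fatty acid oxidation divided evenly, 6 of 12 below 0, with the dehydrogenases Acadm at 21.8 ± 4.42 and 27.4 ± 4.67 CPM and Acadl at 42.5 ± 5.58 and 36.4 ± 2.59 CPM. Of 7 uptake receptors 4 were below 0, with the scavenger receptor Msr1 at 169 ± 22.3 and 195 ± 48.5 CPM and the lipoprotein receptor Lrp1 at 275 ± 3.97 and 249 ± 30.4 CPM.

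Transcripts of other cells also moved with the groups inside the macrophage sums. All 4 haemoglobin genes were higher in anti-VSIG4, with a sum of 5.84 to 69.3 CPM in IgG and 145 to 340 CPM in anti-VSIG4. All 8 neutrophil markers were higher too (304 to 1551 and 779 to 2642 CPM), while 3 of 11 macrophage markers were (12848 to 15421 and 10114 to 14063 CPM). Their part in the changes of the 10 genes was not tested. The adipocyte list, whose cells express Lpl and Plin2, summed to 1.90 to 2.81 CPM in IgG and 2.23 to 3.38 CPM in anti-VSIG4, with Adipoq at 0.

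Across 60 points, 10 classes in 6 libraries, the genes most like each member were found by Pearson correlation of log2(CPM + 1). Points of 1 library share its depth and free RNA, so the values describe and are not tested. Apoe was like Arg1 (0.94) and C1qa (0.91), and Trem2 was most like Arg1 (0.88), Ccl24 (0.86) and C1qb (0.86). Gpnmb was most like Cx3cr1 (0.80), Arg1 (0.78) and C1qb (0.70). Pltp was most like the aminopeptidase Anpep (0.86), Psap (0.84) and Sh3bgrl (0.82). Lpl followed the fibroblast genes Olfml3 (0.88), Col14a1 (0.85) and Cxcl14 (0.84), and Fabp5 followed Cd40 (0.87) and Rassf3 (0.86). Plin2 was most like Plaur (0.92), Tpd52 (0.91) and Atp6v0c (0.90), Abcg1 like Map3k8 (0.90), Abi3 (0.84) and H2-D1 (0.84), Abca1 like Thbs1 (0.84), Rgcc (0.82) and Socs3 (0.79), and Lgals3 like Spint1 (0.87), Pdxk (0.85) and Krt80 (0.84).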

How the data were processed

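Single-cell RNA-seq matrices of 6 tumours (3 IgG, 3 anti-VSIG4, grouped by their treatment labels) were used as deposited. The authors deposited UMI counts per gene and cell barcode, not normalized. The file headers name PISA 1.0, and the submitters' processing notes name STAR and Seurat 4.11. No genome build or annotation is given in the sources used here. The members and the gene lists were chosen with earlier results of these data known.

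Cells with at least 500 UMIs and 300 genes and at most 20% mitochondrial UMIs were kept. They were clustered with scanpy 1.11.5 (2996 variable genes with the 10 members removed, 40 components, 20 neighbours, Leiden resolution 1.0). Macrophages were clustered again after RPCA integration in Seurat 5.3.0 (30 dimensions, 2000 features, resolution 1.0, members removed). Clusters were named from marker lists. Rules added after seeing the data left unnamed any cluster with 2 or more leading genes of another class, or with a median above 15% of UMIs in genes longer than 100 kb (nucleus-like), and split libraries at 1% nucleus-like cells. Gene lengths were matched for 88.3% of genes. Scrublet called 0 doublets at an expected rate of 0.06, so it did not work here, and removing the top 6% of scores was an alternative.

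Counts were summed per library and class or state and tested with edgeR 4.0.16 (TMM, filterByExpr, robust quasi-likelihood test, Benjamini-Hochberg adjustment over all genes) at a false discovery rate of 0.05. The approximate SE is the log2 change divided by the square root of F. Interaction fits compared macrophages with another class. DESeq2 1.42.0 was an alternative, with others named in the closing section. The edgeR script was tested on simulated data. Named genes followed a rule: all 10 members by library; a change with its test for Pltp and Apoe in the 6 classes, and for other members and states at an unadjusted p under 0.05 or without overlap; the 2 genes of smallest p at 20 CPM or more from each related list; and the 3 genes most like each member, of which 1 for Apoe and 1 for Fabp5 are not reported here. Lists were cholesterol synthesis, LXR and efflux, lysosomal breakdown, TREM2 signalling, lipid-associated macrophage genes, fatty acid uptake and storage, fatty acid oxidation, uptake receptors and haemoglobin. Depth per library sets the precision, and low CPM values rest on few UMIs.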

Additional observations from a re-analysis of the deposited data

How the results depend on the processing

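The 54 log2 changes of members that were run again gave 705 alternative values, of which 651 kept their direction and their side of the threshold, 35 passed the threshold in place of failing it, and 19 changed sign. Counts of genes called are given in the order monocyte/macrophage, neutrophil, cDC2, migratory dendritic, fibroblast, tumour/epithelial and the 13 states summed, where edgeR called 0, 1, 0, 0, 0, 0 and 4. Without the filter on low counts they were 41, 63, 18, 45, 163, 154 and 192. Within the few-nucleus libraries they were 66, 3, 10, 6, 90, 6 and 182, and within the many-nucleus libraries 334, 180, 16, 17, 214, 106 and 310. DESeq2 called 23, 6, 0, 1, 31, 4 and 39. With the kind of library as a covariate, edgeR called 4 in macrophages, 10 in neutrophils, 14 in fibroblasts and 40 over the states. Leaving out 1 library gave 0 to 19, 0 to 1, 0 to 2, 0 to 239, 0 to 6, 0 to 3 and 1 to 82, where 19, 239 and 82 came without IgG 1. Members called over the 6 classes numbered 1 with DESeq2, 5 without the filter, 1 within the few-nucleus and 5 within the many-nucleus libraries, 1 without IgG 1, and 0 without the highest doublet scores or, chosen after seeing the data, without sub-clusters led by other lineages. Over the states, counting a member once in each, they numbered 1 with DESeq2, 5 without the filter, 2 with the covariate, 3 within the few-nucleus and 5 within the many-nucleus libraries, 1 without IgG 1 and 1 without IgG 3. Without any of these alternatives, edgeR tested members 50 times over the 6 classes and 117 times over the 13 states, and called 0. The share of all genes called under each alternative is not given, so the member counts cannot be set against a background. The causes were not tested.

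The labels number the replicates but do not state whether same-numbered mice were paired. Same-numbered macrophage sums correlated at 0.27, -0.23 and 0.29 after removing group means. Correlations of differently numbered sums are not given for comparison, so these values cannot decide whether the numbers pair the mice. With the replicate number as a block, edgeR called 11 genes in neutrophils, 10 in cDC2, 3 in migratory dendritic cells, 36 in fibroblasts, 3 in tumour/epithelial cells and 86 over the states, and Pltp in migratory dendritic cells was 0.25. In the same edgeR fit without the block, no member passed. With it 3 passed over the classes and 4 over the states: Apoe in cDC2 (adjusted p = 0.0197), Fabp5 in neutrophils (0.0371), fibroblasts (0.0326) and Cycling cells (0.00754), and Pltp in Ccl17-Dcstamp-led (0.0044), Cycling (0.00787) and Mmp12-Tnfrsf9-led cells (0.0228).

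Changes that turned sign were Apoe in macrophages (0.029 with the kind of library as a covariate, 0.064 within the few-nucleus libraries), in tumour/epithelial cells (-0.0044, few-nucleus) and in migratory dendritic cells (-0.85, few-nucleus, and -0.36 to 1.37 leaving out 1 library). For Pltp they were fibroblasts (-0.35, few-nucleus, and -0.45 to 0.46 leaving out 1 library), migratory dendritic cells (1.88, many-nucleus, and -0.56 to 1.23), neutrophils (-0.049 with the covariate, -0.19 many-nucleus), tumour/epithelial cells (-0.18, many-nucleus), Saa3 Marco macrophages (0.36, many-nucleus, and -0.41 to 0.036) and classical monocytes (-0.68 to 0.087). At a fixed mix of states, leaving out 1 library gave -0.36 to 0.092 for Apoe, -0.14 to 0.052 for Trem2, -0.42 to 0.18 for Gpnmb, -0.045 to 0.062 for Abca1 and -0.12 to 0.18 for Plin2. The change in macrophages minus that elsewhere ran, leaving out 1 library, from -1.79 to -0.99 (neutrophils), -2.12 to -0.58 (migratory dendritic cells) and -1.53 to -0.96 (tumour/epithelial cells) for Pltp, and from -1.70 to -0.74 (neutrophils), -1.47 to -0.85 (cDC2) and -1.95 to 0.046 (migratory dendritic cells) for Apoe. At macrophage resolution 0.5 the share of classical monocytes differed by -1.75 and of interferon macrophages by 0.23 percentage points, both of opposite sign, and without thinning the share of macrophages with a Trem2 UMI differed by 0.23 and with an Lpl UMI by -0.013 percentage points. The cause was not tested.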
